A study of Homo sapiens with 8 samples.

Results

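The hypoxia-inducible factor (HIF) genes were followed in HCT116 cells, an established human colorectal carcinoma line, as 10 genes chosen by name: the subunit genes HIF1A, EPAS1 and ARNT, the hydroxylase genes HIF1AN, EGLN1, EGLN2 and EGLN3, the ligase gene VHL, and the targets VEGFA and CA9. All 10 were among the 19475 entries of the expression table, and 8 of them carried 21 of the 22001 m6A regions, that is, stretches of mRNA in which N6-methyladenosine was called in at least 1 library. Control cells received PBS and the other cells received the bacterium F. nucleatum (FUSO in the labels) at 100 bacteria per cell for 2 h. Each group had 2 replicates, and each replicate gave an input library of polyadenylated RNA and a library immunoprecipitated (IP) with an m6A antibody, 8 samples in all. The labels do not say whether replicates were separate cultures, which the methods of the study call biological replicates, so the tests measure the spread between these libraries. None of the 8 samples received another bacterium, so a response to F. nucleatum and a response to bacteria in general cannot be told apart. The oxygen level of the cultures was not given in the sources used here.

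HIF is a pair of an alpha subunit (HIF-1α from HIF1A, HIF-2α from EPAS1) and the stable beta subunit from ARNT. With oxygen present, the prolyl hydroxylases from the EGLN genes hydroxylate prolines of the alpha subunit, the VHL protein then recognizes it, and the ligase around VHL marks it for destruction, while the asparaginyl hydroxylase from HIF1AN keeps the remaining alpha subunit from binding its coactivators. HIF is therefore controlled largely at the protein, which was not measured here. m6A is a methyl mark on adenosines of mRNA, written mostly at the motif DRACH (an A, G or T, then an A or G, then AC, then an A, C or T), often as GGAC, that can alter the stability and translation of a transcript.

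The stretches of the alpha subunit mRNAs that encode the hydroxylated residues were read from the genome (GRCh37/hg19, plus strand, 5′ to 3′). They show whether the codons of these residues lay inside a called m6A peak. Capitals mark the codon of the hydroxylated residue in the middle of 21 nt. They are given as HIF1A codon 402 (chr14:62203773-62203793), codon 564 (chr14:62207494-62207514) and asparagine codon 803 (chr14:62213720-62213740), then EPAS1 codon 405 (chr2:46603847-46603867), codon 531 (chr2:46607393-46607413) and asparagine codon 847 (chr2:46611716-46611736).
HIF1A proline codon 402: ttgctggccCCAgccgctgga
HIF1A proline codon 564: atgttagctCCCtatatccca
HIF1A asparagine codon 803: tgtgaagttAATgctcctata
EPAS1 proline codon 405: cagctggctCCCaccccagga
EPAS1 proline codon 531: acactggcaCCCtatatcccc
EPAS1 asparagine codon 847: tgtgaggtgAACgtgcccgtg
Of the 3 HIF1A codons, codon 564 lay inside an m6A peak in all 4 lists, and codons 402 and 803 lay in a peak of no list. Of the 3 EPAS1 codons, codon 531 lay in a peak of Control 2 and F. nucleatum 2, codon 847 in a peak of F. nucleatum 1, and codon 405 in a peak of no list.

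Motif stretches from 9 of the 12 m6A regions that were called in every list were read in the same way, each with a GGAC in capitals within 21 nt. They show where the motif stood in the regions that the results turn on, on the plus strand except for EGLN1, whose gene lies on the minus strand. Their positions are HIF1A coding sequence (chr14:62207799-62207819), HIF1AN stop codon region (chr10:102307951-102307971), EGLN1 exon 1 (chr1:231557476-231557496), EGLN1 exons 1 to 5 (chr1:231556795-231556815), EGLN2 exon 2 (chr19:41306700-41306720), EGLN2 3′ end (chr19:41313966-41313986), VHL (chr3:10188217-10188237), VEGFA exon 1 (chr6:43738441-43738461) and VEGFA 3′ end (chr6:43752781-43752801).
HIF1A coding sequence: tcaaagtcGGACagcctcacc
HIF1AN stop codon region: attgatgaGGACaggagactc
EGLN1 exon 1: cagcgtcaGGACtggaagaag
EGLN1 exons 1 to 5: agcagcatGGACgacctgata
EGLN2 exon 2: cctcttcgGGACggttttggc
EGLN2 3′ end: tgtcacctGGACagggggcag
VHL: agatgcagGGACacacgatgg
VEGFA exon 1: gcgctgacGGACagacagaca
VEGFA 3′ end: actgctgtGGACttgagttgg
The motif GGAC was present on the sense strand of 81.0% of the 21 HIF-gene regions and of 72.8% of all regions, and DRACH of 95.2% and 94.8%, overlapping GGAC wherever GGAC fits it. In the printed stretches of EGLN1 exons 1 to 5 and EGLN2 exon 2, a G follows GGAC, so these fall outside DRACH. A motif match is a description of the letters and not a methylated site.

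mRNA levels were given as FPKM (fragments scaled by transcript length and by the total mapped) of the 4 input libraries, without read counts, so the absolute depth was unknown. Relative depth, estimated from low values with Control 1 set to 1, ran from 0.909 in F. nucleatum 2 to 1.23 in F. nucleatum 1, with Control 2 at 1.11. The peak lists held 17039 to 18365 peaks. The 6 epithelial markers summed to 5171 and 4795 FPKM in Control and 4353 and 4721 FPKM in F. nucleatum libraries, with VIL1 at or near 0. KRT8 and KRT18 were lower in both F. nucleatum libraries than in both Control libraries. EPCAM and CDH1 were higher in both, and for KRT19 the groups overlapped. The 5 markers of blood, endothelial, stromal and phagocytic cells summed to 11.7 to 13.1 FPKM in Control libraries. In F. nucleatum libraries they summed to 14.2 to 14.7 FPKM. COL1A2 was at 0, and PTPRC (blood) and PECAM1 (endothelial) were at or near 0, so the sums came from COL1A1 and CD68. COL1A1 measured 4.51 and 3.78 FPKM in Control and 5.72 and 5.05 FPKM in F. nucleatum libraries. For CD68 the groups overlapped (7.15 and 9.30 against 8.94 and 9.09 FPKM). The part of these markers in the results was not tested.

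None of the tested HIF genes was called as changed in mRNA between the groups. Among the 9 genes that reached the test filter of a mean of 1 FPKM, the median log2 fold change (F. nucleatum over Control, on log2(FPKM + 1)) was 0.13, against 0.01 over all genes tested. With limma, 0 of the 9 were called at a Benjamini-Hochberg adjusted p under 0.05, where 0.667% of the 11088 genes tested were called higher and 0.135% lower, 0.803% in all. The log2 fold change was above 0 for 7 of the 9, against 54.0% of all genes. At an unadjusted p under 0.05 it was 1 of 9 (EPAS1), against 13.5% of all genes. Both F. nucleatum libraries lay above both Control libraries for 5 of the 9 (EPAS1, ARNT, HIF1AN, EGLN1 and VEGFA), against 26.1% of all genes, and the reverse held for 0 of the 9, against 21.1%. In bulk RNA, a change in the number of cells that express a gene and a change in RNA per cell cannot be told apart.

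By mean FPKM over the 4 libraries, HIF1A stood highest at 29.0, above 78.5% of the genes tested. EGLN2 at 17.2, HIF1AN at 15.1, VHL at 10.4, EGLN1 at 10.2, EPAS1 at 8.91, VEGFA at 7.17, ARNT at 6.43, EGLN3 at 1.36 and CA9 at 0.798 followed. In this order of levels the libraries of HIF1A, EGLN2 and HIF1AN did not overlap with those of the next gene, whereas those of VHL and EGLN1, of EGLN1 and EPAS1, of EPAS1 and VEGFA, of VEGFA and ARNT, and of EGLN3 and CA9 did. The plot of levels by library shows this order.

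**Figure D1:**
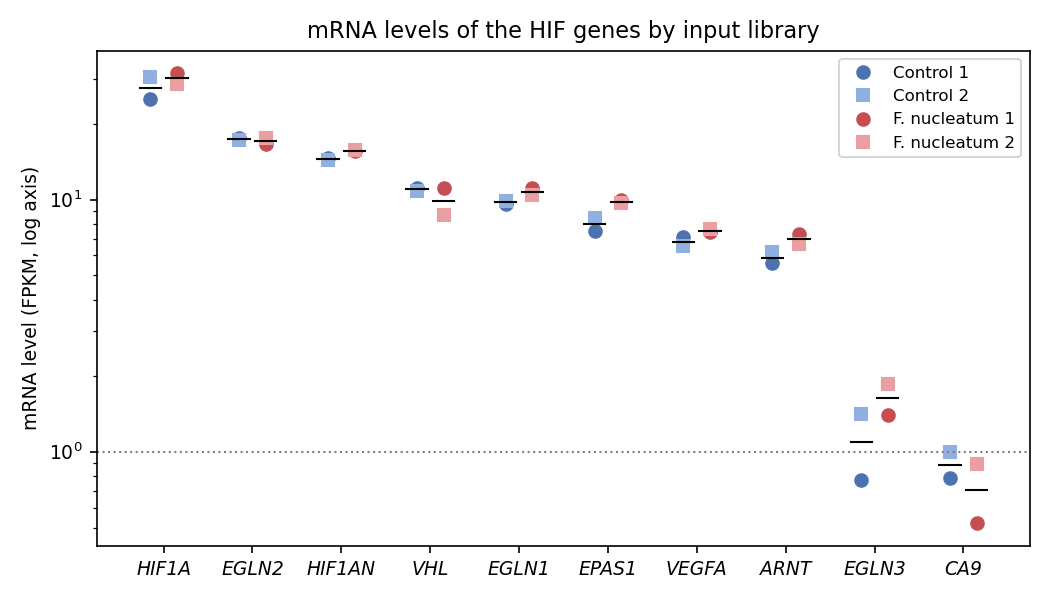
mRNA level (FPKM, log axis) of the 10 HIF genes in the 4 input libraries, with circles for replicate 1, squares for replicate 2 and lines at the group means. HIF1A lies at 25.1 to 31.7 FPKM in all libraries, and EGLN3 and CA9 lie near the dotted filter line at 1 FPKM.

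HIF1A mRNA was 25.1 and 30.5 FPKM in the Control libraries and 31.7 and 28.8 FPKM in the F. nucleatum libraries. The groups overlapped, with Control 1 the lowest library. The means were 27.8 ± 3.82 and 30.3 ± 2.02 FPKM (SD, n = 2 each), a log2 fold change of 0.12 with a standard error of 0.108 and a 95% confidence interval of -0.15 to 0.39 (limma, adjusted p = 0.638). Without Control 1 the difference was -0.01. The interval leaves room for a rise or a fall of the HIF1A transcript of that size, which these libraries could not resolve.

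The genes with the pattern over the 4 libraries most like that of HIF1A, by Euclidean distance of centred log2(FPKM + 1), were ZNF784 (0.00922), MCCC1 (0.0186) and C3orf38 (0.0197). A total of 271 genes lay within 0.1 of HIF1A, so such likeness was common over 4 libraries.

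EPAS1 mRNA was 7.53 and 8.47 FPKM in Control and 9.92 and 9.71 FPKM in F. nucleatum libraries. Both F. nucleatum libraries were higher than both Control libraries, and the Control libraries were the more spread. The means were 8.0 ± 0.659 and 9.82 ± 0.144 FPKM (SD, n = 2 each), a ratio of 1.23 and a log2 fold change of 0.27 with a standard error of 0.0837 and a 95% confidence interval of 0.06 to 0.48. The limma p was 0.0211 before adjustment and 0.293 after it, so the difference did not pass the threshold, and over 12 alternative settings the adjusted p ran from 0.114 to 0.799.

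The beta subunit transcript ARNT measured 5.61 and 6.17 FPKM in Control and 7.31 and 6.66 FPKM in F. nucleatum libraries. The groups did not overlap, by a margin smaller than the spread within either group. The log2 fold change was 0.21 with a standard error of 0.0893 and an adjusted p of 0.385 (limma). No m6A peak of ARNT was called in any list, while 83.9% of all genes tested and 87.6% of the 4240 genes within 2-fold of its FPKM had a peak in at least 1 list.

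HIF1A carried 2 m6A regions. The main region lay in coding exons 11 and 12 of 15 (chr14:62207279-62207884, 479 nt of exon, plus strand) and held codon 564. It covered 420 and 390 bases in the Control lists and 449 and 449 bases in the F. nucleatum lists. The deposited peak p-values were 5e-65, 1.6e-78, 1e-71 and 2.5e-76 in the order Control 1, Control 2, F. nucleatum 1 and F. nucleatum 2. The region was thus called deeply in every list, and it was wider in both F. nucleatum lists by a small margin, as were 13.7% of the 11341 regions called in all lists (4.15% of those with at least 60% GC and 15.9% of the others). The GC content of this HIF1A region was 42.0%.

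The other HIF1A region lay at the 5′ end, in exon 1 (chr14:62162209-62162388, 180 nt, GC content 67.2%). It was absent from the Control 1 list and covered 120 bases in Control 2, with 180 and 150 bases in the F. nucleatum lists 1 and 2 and peak p-values of 0.001, 5.5e-09 and 3.4e-05. Its call separated Control 1 from the rest and not the groups, and leaving out Control 2 would count it as gained. Of its bases, 87.8% lay on the canonical transcript. The antisense genes HIF1A-AS1 and HIF1A-AS3 overlap HIF1A, and VHL, VEGFA and CA9 also have an annotated gene on the opposite strand. The sources used here do not say whether reads were assigned by strand, so the reads of such partners cannot be told apart.

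EPAS1 carried 3 regions that were patchy among replicates. The region in coding exons 10 to 12 (chr2:46605125-46607481), which held codon 531, was called in Control 2 (181 bases) and F. nucleatum 2 (329 bases) only. The region in exons 15 and 16 (chr2:46609663-46611782), with codon 847, was called in F. nucleatum 1 only, over 210 bases with a deposited peak p-value of 1.1e-07. The 3′UTR region (chr2:46612678-46613245, 568 nt) was called in every list, over 300, 180, 150 and 360 bases, yet with 0 bases common to all 4 lists. The overlap of replicates as a Jaccard index (shared bases divided by all bases called in a pair of lists) was 0.158 for EPAS1 in Control and 0.167 with F. nucleatum, against 0.632 and 0.952 for HIF1A.

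HIF1AN, which encodes the asparaginyl hydroxylase known as factor inhibiting HIF, measured 14.6 and 14.3 FPKM in Control and 15.5 and 15.7 FPKM in F. nucleatum libraries. Both F. nucleatum libraries were higher, by more than the small spread within either group. The log2 fold change was 0.10 with a standard error of 0.0649 and an adjusted p of 0.513 (limma). Its main m6A region spanned exons 5 to 8 over the stop codon (chr10:102305800-102308116) and covered 300 and 390 bases in Control and 449 and 390 bases in F. nucleatum lists, with p-values of 6.3e-15, 7.9e-36, 4e-20 and 1.3e-29. The groups overlapped at 390 bases.

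A second HIF1AN region in the 3′UTR (chr10:102308266-102308565) covered 180 and 150 bases in Control and 300 and 240 bases in F. nucleatum lists, so it was wider in both F. nucleatum lists, as were 13.7% of all regions called in every list and 15.9% of those under 60% GC. The peak p-values there were 9.5e-10, 4.9e-07, 6.3e-12 and 2e-12. The remaining HIF1AN regions lay in exons 2 and 3, 1 called in F. nucleatum 1 only (91 bases) and 1 in Control 1 only (121 bases).

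The 3 prolyl hydroxylase genes differed in level far more than in response. EGLN1, which encodes the main prolyl hydroxylase of most cells, measured 9.62 and 9.88 FPKM in Control and 11.1 and 10.4 FPKM in F. nucleatum libraries. Both F. nucleatum libraries were higher, and the log2 fold change was 0.13 with a standard error of 0.0735 (limma, adjusted p = 0.490). EGLN2 measured 17.6 and 17.2 FPKM against 16.6 and 17.5 FPKM. These groups overlapped, with F. nucleatum 1 the lowest library, and the log2 fold change was -0.03 with a 95% confidence interval of -0.20 to 0.14 (adjusted p = 0.860). It turned to 0.0042 after correction for GC content and to 0.0032 without F. nucleatum 1.

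EGLN3, a hydroxylase gene that is itself a HIF target, measured 0.772 and 1.41 FPKM in Control and 1.40 and 1.85 FPKM in F. nucleatum libraries. Control 1 was the lowest, and Control 2 and F. nucleatum 1 were nearly equal. Its log2 fold change was 0.34 with a standard error of 0.178 and a 95% confidence interval of -0.10 to 0.79 (limma, adjusted p = 0.456). The value was 0.12 without Control 1, 0.56 without Control 2, 0.22 without F. nucleatum 2 and 0.58 with a pseudocount of 0.1 FPKM. EGLN3 lay above 4.66% of the genes tested by level.

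**Figure D2:**
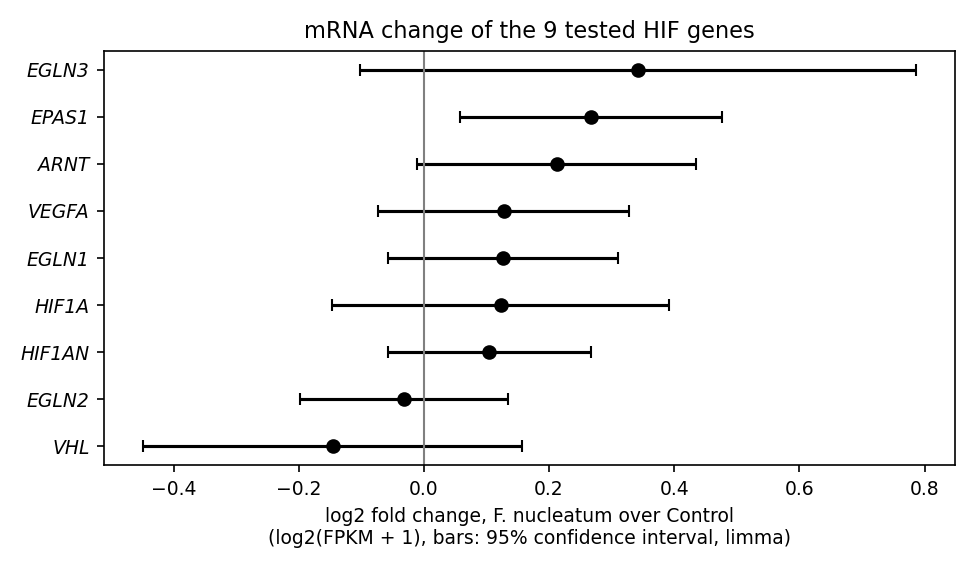
Log2 fold change in mRNA (F. nucleatum over Control, on log2(FPKM + 1)) of the 9 tested HIF genes, with points for the estimate and bars for the 95% confidence interval from limma. The interval of EPAS1, 0.06 to 0.48, lies above 0 before adjustment, and the intervals of the other 8 genes include 0.

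EGLN1 carried an m6A region in the coding part of exon 1 (chr1:231557227-231557556, minus strand) that was called in every list. It covered 330 and 270 bases in Control and 210 and 150 bases in F. nucleatum lists, with p-values of 6e-09, 1.6e-14, 6.6e-09 and 0.0003. It was narrower in both F. nucleatum lists, as were 17.3% of all regions called in every list. The GC content of this region was 74.5%, and among regions of at least 60% GC the share that was narrower in both F. nucleatum lists was 38.7%, against 12.3% below that bound. The part of GC content in the EGLN1 value was not tested.

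A longer EGLN1 region ran from exon 1 to exon 5 over the stop codon (chr1:231501683-231557107, 1228 nt of exon, GC content 43.6%). This region held 2 separate peaks in each of Control 1, Control 2 and F. nucleatum 1, and 1 peak in F. nucleatum 2 that joined them. It covered 841 and 1020 bases in Control and 871 and 930 bases in F. nucleatum lists, so the groups overlapped. A 5′UTR region of EGLN1 was called in Control 2 only (151 bases).

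EGLN2 carried a region in exon 2 (chr19:41305543-41307141, plus strand, GC content 68.0%) over 839 and 899 bases in Control and 601 and 869 bases in F. nucleatum lists. The peak p-values were 7.9e-27, 5e-22, 7.9e-13 and 1.3e-09. The covered bases overlapped between the groups, and the order of the p-values was not read, since they depend on depth. Its 3′ region in exons 4 to 6 (chr19:41313101-41314346) covered 749 and 689 bases in Control and 689 and 689 bases in F. nucleatum lists, with p-values of 1e-39, 6.3e-45, 1.3e-47 and 5e-49. Of its 780 bases, 659 were common to all 4 lists. A 5′UTR region of EGLN2 (chr19:41305108-41305394, GC content 79.3%) was called in Control 2 only, over 121 bases with a peak p-value of 0.0018. Of these bases, 49.6% lay on the canonical transcript. The readthrough gene RAB4B-EGLN2 shares exons with EGLN2 and had 9 peaks of its own on them, so the signal cannot be assigned to either gene with certainty.

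EGLN3 carried a 3′UTR region (chr14:34394378-34394916, minus strand) that was called in every list, over 240 and 300 bases in Control and 270 and 301 bases in F. nucleatum lists, with 61 bases common to all. The peak p-values ran from 2.8e-06 to 4.1e-05, among the weakest of the 12 HIF-gene regions called in every list, and no GGAC lay in it. A region in its exon 1 was called in Control 1 and F. nucleatum 1 only, and a second 3′UTR region in F. nucleatum 1 only.

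VHL, which encodes the recognition subunit of the ligase, measured 11.2 and 10.8 FPKM in Control and 11.1 and 8.65 FPKM in F. nucleatum libraries. F. nucleatum 2 was the lowest library and the other 3 were close together. The log2 fold change was -0.15 with a 95% confidence interval of -0.45 to 0.16 (limma, adjusted p = 0.618), and without F. nucleatum 2 it was 0.02. The m6A peaks of VHL merged into 1 region over exons 1 to 3 (chr3:10183439-10192272, 1617 nt of exon) that covered 1439 and 1138 bases in Control and 1229 and 1348 bases in F. nucleatum lists. The groups overlapped, and the p-values were 3.2e-11, 2e-18, 6.3e-22 and 7.9e-22.

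A stretch of the VHL region lay outside the canonical transcript. The 259-nt exon at chr3:10184447-10184705, which other annotated VHL transcripts hold, was covered from end to end in all 4 lists.

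VEGFA, which encodes the main growth factor for blood vessels and is a standard HIF target, measured 7.11 and 6.52 FPKM in Control and 7.43 and 7.63 FPKM in F. nucleatum libraries. Both F. nucleatum libraries were higher. The log2 fold change was 0.13 with a standard error of 0.0803 and a 95% confidence interval of -0.07 to 0.33 (limma, adjusted p = 0.518). CA9, the carbonic anhydrase gene often read as a marker of hypoxia, measured 0.785 and 0.994 FPKM against 0.521 and 0.894 FPKM. It lay under the filter and was not tested, and its groups overlapped. No m6A peak of CA9 was called in any list, and 66.0% of the 1862 genes within 2-fold of its FPKM had a peak.

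VEGFA carried the strongest m6A calls among the HIF genes. Its main region ran over exons 3 to 8 and the start of the 3′UTR (chr6:43745252-43753414, 1650 nt of exon, plus strand) with 37 DRACH motifs. It covered 1530 and 1590 bases in Control and 1530 and 1530 bases in F. nucleatum lists, with p-values of 1e-139, 1e-143, 1e-153 and 1e-168. It ranked 589, 644, 576 and 358 by p-value in lists of 17198, 18149, 18365 and 17039 peaks. The p-value of a peak falls with read depth as well as with enrichment, so its order across lists was not read as a change in methylation.

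The VEGFA region in exon 1 (chr6:43738156-43738965, GC content 69.0%) covered 690 and 780 bases in Control and 391 and 331 bases in F. nucleatum lists. It was narrower in both F. nucleatum lists, by more than the spread within either group, with p-values of 2.5e-14, 2.5e-20, 1.3e-07 and 1e-13. It is GC-rich like the exon 1 region of EGLN1, and of the 3 HIF-gene regions of at least 60% GC called in every list, 2 were narrower in both F. nucleatum lists, against 38.7% of all such regions of that GC content. The part of GC content in the VEGFA value was not tested. Of 18 coding VEGFA transcripts in the annotation, 9 begin translation at 43738444, inside this region and inside the stretch printed above, and 8 begin at 43738984, downstream of it, so the region is coding in some transcripts and 5′UTR in others.

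No m6A region of the HIF genes separated the groups by its presence. Of the 21 regions, 12 were called in all 4 lists (57.1%, against 51.5% of all regions), 0 in both Control lists only (against 2.64%), 0 in both F. nucleatum lists only (against 2.38%) and 9 in other combinations. Regions called in 1 list numbered 6 (28.6%, against 25.6%). The Control lists held 17 and 17 peaks in the HIF genes, and the F. nucleatum lists held 20 and 16 (exact permutation p = 1, two-sided). These peaks covered 8069 and 8369 bases in Control and 7801 and 8066 bases with F. nucleatum, a mean difference of -285.5 bases (exact permutation p = 0.333, two-sided, the smallest that 2 against 2 lists allow, so no such comparison could pass 0.05). Without Control 1 the difference in bases was -435.5, and without Control 2 it was -135.5. Without F. nucleatum 1 it was -153, and without F. nucleatum 2 it was -418. For peaks with p of at most 1e-05 it was -706. By their midpoint, 3 regions lay in the 5′UTR, 10 in the coding sequence, 2 at the stop codon and 6 in the 3′UTR. The shares of the 17525 regions that could be placed were 4.91%, 45.1%, 15.7% and 34.4% in the same order. These shares are not of like sets. Regions of other genes were placed only with a single gene name and at least 90% of their bases on the transcript. HIF-gene regions were placed without these limits. Under 90% were the 5′UTR regions of HIF1A (87.8%) and EGLN2 (49.6%) and the VHL region (82.6%), which was classed at the stop codon. Long regions of EGLN1, EGLN2 and VEGFA also crossed the stop codon, though their midpoints lay in other classes. The absence of a peak states only that none was called.

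Beyond these 10 genes, 73 genes of the pathway were read from 6 lists, of which 63 passed the filter. In limma, 1 of them was called higher and 0 lower, against 0.667% and 0.135% of all genes. Unadjusted p-values under 0.05 were found for 12 higher and 4 lower genes, where the shares over all genes were 7.04% and 6.45%. The median log2 fold change over the 6 lists was 0.02, against 0.01 over all genes tested. The plot by list shows values on both sides of 0 in every list except the partners, and the list of targets outside glycolysis held the called gene.

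That list of 24 targets held 20 tested genes with a median log2 fold change of 0.10. In 11 of them both F. nucleatum libraries lay above both Control libraries, against 26.1% of all genes, and in 2 the reverse held, against 21.1%. Unadjusted p-values under 0.05 were found for 7 higher and 0 lower genes of the 20, against 7.04% and 6.45% of all genes. BHLHE40, a transcriptional repressor of the circadian and hypoxia responses, measured 22.8 and 24.3 FPKM in Control and 38.1 and 40.8 FPKM in F. nucleatum libraries. It rose by 0.72 on the log2 scale, with a standard error of 0.0697 (limma, adjusted p = 0.019). This gene responds to many other signals. Its adjusted p became 0.0558 without a filter on low values, where its log2 fold change was again 0.72. It became 0.181 without F. nucleatum 1 and 0.206 without F. nucleatum 2, with log2 fold changes of 0.77 and 0.67. Without Control 2, 5 pathway genes were called in place of 1. In the same list FAM162A, of highest level at 99.2 FPKM, had a log2 fold change of -0.01, which rose above 0 without Control 1 (0.11), without F. nucleatum 1 (0.042) and under quantile normalization (0.027), and ANKRD37 had -0.21 (adjusted p = 0.466), which was -0.061 without Control 1 and -0.35 without Control 2.

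All 20 glycolytic targets were tested, and 0 were called in limma, against 0.803% of all genes. At an unadjusted p under 0.05 there were 3, 1 higher and 2 lower, against 7.04% and 6.45% of all genes. The median log2 fold change was -0.05, and 7 of the 20 lay above 0, against 54.0% of all genes. Both Control libraries lay above both F. nucleatum libraries for 8, against 21.1% of all genes. The reverse held for 3, against 26.1%. HK2, the hexokinase that HIF-1 induces, measured 10.65 and 10.96 FPKM in Control and 8.46 and 8.44 FPKM in F. nucleatum libraries, a log2 fold change of -0.32 (adjusted p = 0.192). ENO2, an enolase, had the highest value at 0.24 (adjusted p = 0.285), and GAPDH, at a mean of 5046 FPKM, had -0.06.

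Of 13 regulators of HIF stability, 0 were called in limma, against 0.803% of all genes, and the median was -0.02. An unadjusted p under 0.05 was found for 3 (2 higher and 1 lower), against 7.04% higher and 6.45% lower of all genes. SIAH2, a ligase that degrades prolyl hydroxylases, measured 18.5 and 17.5 FPKM in Control and 22.7 and 23.3 FPKM in F. nucleatum libraries, a log2 fold change of 0.34 (adjusted p = 0.155). MTOR had -0.21 (adjusted p = 0.342) and RACK1, at 2083 FPKM, had -0.08. Among 4 tested partners and coactivators, 0 were called in limma and 1 had an unadjusted p under 0.05, against 0.803% and 13.5% of all genes. ARNTL, a beta-type partner better known from the circadian clock, had 0.40 (adjusted p = 0.137), and EP300 had 0.19. ARNT2 had 0.01 at 1.02 FPKM, with its sign changing between settings.

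Of the 4 subunits around VHL in its ligase, 0 were called in limma, against 0.803% of all genes. An unadjusted p under 0.05 was found for 1, against 13.5% of all genes. It was CUL2, with a log2 fold change of 0.27 (adjusted p = 0.329). ELOC measured 67.4 and 63.5 FPKM in Control and 36.97 and 63.5 FPKM in F. nucleatum libraries, so its value of -0.42 (adjusted p = 0.481) rested on F. nucleatum 1, without which it was -0.04. ELOB had -0.02. Of 7 VEGF ligands and receptors only 2 passed the filter, and 0 were called in limma, against 0.803% of all genes. VEGFB had -0.23 (adjusted p = 0.347) and PGF had 0.31 (adjusted p = 0.377), which was 0.16 without Control 2 and 0.49 with a pseudocount of 0.1 FPKM. The unadjusted p was under 0.05 for 1 of the 2, VEGFB (lower), against 13.5% of all genes in either direction.

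m6A regions were found on 51 of the 73 pathway genes, of which 63 passed the filter of a mean of 1 FPKM. Of all genes tested, which all passed it, 83.9% had a peak, so these shares are not of like sets. The pathway genes held 81 regions in all, of which 45 (55.6%, against 51.5% of all regions) were called in every list. In both Control lists only there were 2 of the 81 (2.64% of all regions), a 3′UTR region of CA12 (chr15:63617767-63617916) and a region of INSIG2 (chr2:118846024-118846180). The deposited peak p-values in Control 1 and 2 were 0.0068 and 0.00058 for CA12 and 0.0063 and 0.00028 for INSIG2. In both F. nucleatum lists only there were also 2 (2.38% of all regions), both in the 3′UTR of STC2 (chr5:172741726-172741875 and chr5:172743397-172743696). The p-values in F. nucleatum 1 and 2 were 0.00059 and 7.4e-05 for the first and 1.3e-06 and 0.00051 for the second. None of these regions had a p of at most 1e-05 in both of its lists. STC2, a secreted glycoprotein gene, had a log2 fold change in mRNA of 0.29 that did not pass the threshold (limma, adjusted p = 0.213). These 4 regions were named after their values were seen.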

How the data were processed

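HCT116 cells were measured by m6A immunoprecipitation and sequencing in 8 samples. Per the labels and the methods of the study, the authors trimmed adapters (Trim Galore 0.3.3 in the submitters' processing notes, cutadapt in the methods) and aligned reads to hg19 with HISAT2 2.1.0. The deposited expression values were FPKM, computed by the authors with StringTie from the 4 input libraries. The 4 deposited peak lists, 1 per replicate, held exon blocks, a gene name and a score read here as the authors' p-value before correction (at most 0.012). The methods name MACS2, but the layout is that of exomePeak, so the program remains unknown. No counts, fold enrichment or summits were used, so depth was unknown.

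The limma package (3.58.1, R 4.3.3) was used for expression (eBayes with trend, no covariate) on log2(FPKM + 1) for 11088 entries with a mean of at least 1 FPKM, since the count model of the study's methods needs counts. The added 1 FPKM shrinks the fold changes of low genes. Benjamini-Hochberg adjustment ran over all of them, and 0.05 was the threshold. Peaks touching by at least 1 bp on the same strand were merged into regions and placed, in Python 3.11.15 with pysam 0.24.0, on canonical transcripts of GENCODE release 44 mapped to GRCh37. EGLN2 regions were taken from peaks named EGLN2. The stop codon class reached 100 nt to either side. Coordinates are 1-based. For the comparison of F. nucleatum with Control, data were simulated over 11088 genes, with normal noise and the observed spread shuffled among genes. On the log2 scale, limma recovered 75% of 100 genes changed by 1 and 93% of 100 changed by 2, with 2 false calls. Smaller changes, such as the 0.34 of EGLN3 or the 0.72 of BHLHE40, were not simulated, so the recovery at such sizes is unknown.

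The genes named were the 10 HIF genes and, of each pathway list, every called gene, the largest rise, the largest fall and the gene of highest mean FPKM, beside the 3 genes most like HIF1A. The HIF genes and the lists were chosen with earlier results of these data known, and 1 list gene is not reported here. Alternatives were a pseudocount of 0.1, no filter, other scalings, no variance trend, GC correction, a replicate block, each library left out, peaks with p of at most 1e-05 and a reciprocal overlap of 50%.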

Additional observations from a re-analysis of the deposited data

How the results depend on the processing

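With 2 libraries a group, the intervals of the HIF genes leave changes of the size seen unresolved, and presence of a peak depends on an unknown IP depth. Under all 12 alternative settings of the mRNA test, 0 of the 9 tested HIF genes were called. With 1 library left out, log2 fold changes crossed 0 for HIF1A (-0.013 without Control 1, up to 0.26), VHL (-0.31 to 0.020, the latter without F. nucleatum 2), EGLN2 (-0.065 to 0.0032, the latter without F. nucleatum 1), ARNT2 (-0.014 to 0.039), FAM162A (-0.12 to 0.11) and ELOB (-0.063 to 0.023). They also changed sign for EGLN2 under GC correction (0.0042, also with the block), for ARNT2 under quantile normalization (-0.053), median scaling (-0.012) and GC correction (-0.0092, also with the block), and for FAM162A under quantile normalization (0.027). The 1 pathway gene called higher became 0 with no filter on low values, and 0 to 5 with 1 library left out. Over all genes, 89 calls became 40 with no filter, where 15695 entries were tested, 60 without a variance trend, and 16 to 284 with 1 library left out. For the HIF genes, regions in both Control lists only went from 0 to 1 at a peak p of at most 1e-05 (EGLN3) and to 1 at a reciprocal overlap of 50% (EPAS1), and with 1 library left out they numbered 0 to 2, and regions in both F. nucleatum lists only 0 to 3. Regions in every list numbered 9 to 13. The difference in peak number (1) became -1.5 at the stricter p, and ran from -1 to 3 with 1 library left out. By the start of a region in place of its midpoint, 6 lay in the 5′UTR and 0 at the stop codon. The causes were not tested.

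Replicate numbers were shared by the groups, but the labels do not say that they mark a culture day or a batch. The deviations of same-numbered libraries had a correlation of 0.0243 over 11088 genes. With 2 pairs, this value cannot settle whether same-numbered libraries share more than a number. With the replicate number as a block, 0 HIF genes and 1 pathway gene were called, and 90 genes over all in place of 89. The block thus changed no call at an adjusted p under 0.05 named here. The unadjusted limma p of EGLN3 was 0.107 in the main fit and 0.0256 with the block, where its adjusted p was 0.326. The peak counts came from no model and have no such fit.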
